A study of Oryza sativa with 3 samples.

Results

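The rice node was compared with the rice stem, gene by gene, from 1 RNA sequencing library of each tissue. The node sample was taken from nodes I and II, the uppermost nodes of the shoot as these are usually counted in rice, and the label of the other library says only stem, with no word on whether it held nodes. A leaf blade library of the same series is given beside some values. All 3 came from rice (Oryza sativa) kept at 29 °C in days of 12 h light and 12 h dark. The genotype, the age of the plants and the number of plants in a library are not stated in the sources used here. Each library was deposited as a table of FPKM values, that is, fragments scaled to transcript length and to library size, with a lower and an upper bound. The genes compared are those whose row carries a single locus identifier that is found once in the node table and once in the stem table. There were 52411 such genes, of 54532 with a single identifier in any of the 3 tables. Of these, 19338 reached 1 FPKM in node or stem and were compared. A further 20989 were listed at 0 in both tissues, and 12084 were under 1 FPKM in both.

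A rice stem is built of internodes, which elongate and hold pith and vascular bundles, and of nodes, the solid joints between them. At a node the bundles of the leaf, the bud and the internodes above and below meet and branch, and mineral elements are moved from bundle to bundle there on their way to leaves and the panicle. The base of each internode, next to the node, is also where stem cells divide and expand, and the basal stem of rice stores starch in its parenchyma before the grain fills.

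Differences are given as the log2 ratio of (FPKM + 1) in node over that in stem, so a positive value means a higher level in node. A gene was called higher or lower at a log2 ratio of at least 2 in size, which is 4-fold on this scale. The 19338 genes gave 1390 calls of higher, 7.19% of the genes compared, and 481 calls of lower, 2.49%. The other 90.3% were within 4-fold. The largest differences also ran mostly one way, with 187 genes higher and 31 lower by 16-fold or more. The median log2 ratio over all genes compared was 0.19, with quartiles at -0.32 and 0.81, and the family medians below are to be read against it. With 1 library per tissue there was no replicate check and no test, and the calls describe these 2 libraries only.

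**Figure D1:**
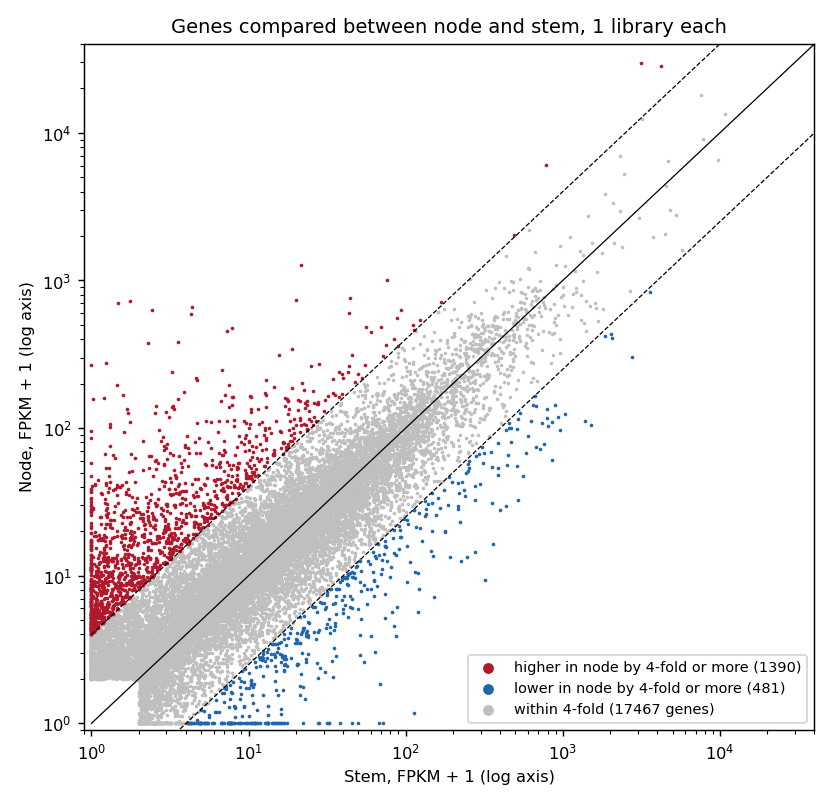
Each point is 1 of the 19338 genes compared, placed by its FPKM + 1 in node (vertical, log axis) and in stem (horizontal, log axis). The solid line marks equal values and the dashed lines mark 4-fold; the 1390 genes above the upper dashed line outnumber the 481 below the lower one.

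The depth behind these values was about 39960000 implied fragments in node and 43160000 in stem. For rows at 10 FPKM or more the distance of the deposited bounds from the value had a median of 5.12% in node and 4.83% in stem. They were read as covering counting error only. Among the genes called, the bounds of node and stem did not overlap for 1384 of the genes higher in node and 478 of those lower. They also did not overlap for 77.5% of all genes compared, most of which were within 4-fold. The number of fragments implied by each interval gave a check on direction. Of the genes called and above 0 in both tissues, the share of the library's fragments went the other way for 14 of 1206 higher genes and 17 of 377 lower genes. Among the genes named below, some reversals of this kind and loci that overlap another row are stated with the gene.

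The labelled tissues were set against short lists of marker genes chosen by identifier. The 6 green tissue markers (antenna proteins, Rubisco small subunits and PSBS1) summed to 599 FPKM in node, 4849 in stem and 8844 in leaf blade, and RBCS4 was listed at 0 in stem. The 4 root markers summed to 57.5 FPKM in node and 13.2 in stem, where 2 of them, CRL1 and RCC3, were listed at 0. The 11 inflorescence and flower markers summed to 1002 FPKM in node and 1008 in stem. Most of that sum was MADS14, a gene of the floral transition, at 713 FPKM in node and 743 in stem. In whole tissues, fewer cells of a type and less RNA per cell cannot be told apart.

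Genes known to move mineral elements in rice nodes were, as a group, higher in node. Of 14 listed by identifier, 12 were compared, and 6 were higher and 0 lower by 4-fold or more, with a median log2 ratio of 1.99. The list was drawn up from what these genes are known to do in nodes, so this direction is no independent finding. LSI6 (LOC_Os06g12310, chromosome 6, 6648387 to 6653071), a channel that takes up silicic acid, reached 626 FPKM in node (deposited interval 619 to 633) and 92.2 in stem (89.9 to 94.5). LSI2 (LOC_Os03g01700), which exports silicic acid from the cell, had 110.5 FPKM in node (108 to 113) and 4.40 in stem (3.998 to 4.79), a log2 ratio of 4.37. Influx channel and exporter were thus both high in node, and the third silicon gene, LSI3 (LOC_Os10g39980), was within 4-fold at 116 FPKM in node and 50.96 in stem, with fragment shares that differed little and the other way.

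The transporter farthest toward node in this list was ZIP3 (LOC_Os04g52310), a zinc transporter, with 139 FPKM in node and 1.57 in stem, though its locus overlapped another expressed row. SPDT (LOC_Os06g05160, chromosome 6, 2292595 to 2298805), which directs phosphorus toward the grain and is described in the files as a sulfate transporter, reached 55.3 FPKM in node (53.3 to 57.4) and 4.89 in stem (4.34 to 5.44). The sodium transporter HKT1;5 (LOC_Os01g20160) had 30.1 FPKM in node and 3.23 in stem. The deposited intervals of node and stem lay apart for each of these 3 genes, as they did for 77.5% of all genes compared. Zinc transporter ZIP4 (LOC_Os08g10630) stood just beyond the threshold, at 42.5 FPKM in node and 9.72 in stem (2.02), and the boron exporter BOR1 (LOC_Os12g37840) just inside it, at 78.5 FPKM in node and 19.3 in stem (1.97). The members that did not differ by 4-fold were not all of a kind. The copper pump HMA5 had a log2 ratio of -0.37, the vacuolar transporter ABCC1 of -0.38 and the phosphate exporter PHO1;2 (LOC_Os02g56510), at a locus that overlapped another row, of 0.31. The cadmium and zinc pump HMA2 had 23.5 FPKM in node against 8.99 in stem, with near-equal fragment shares. LCT1 was under 1 FPKM in both tissues. The manganese transporter gene NRAMP3 could not be compared, because its row was merged with a neighbour in node, at 328 FPKM, and stood alone in stem, at 16.4 FPKM. The root silicon channel LSI1, a root marker here, had 38.5 FPKM in node and 8.06 in stem. The part of root-type cells in these values was not tested.

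Transporter families taken whole, by their descriptions, differed less. In these and all lists below, counts are of members that reached 1 FPKM in node or stem. The 14 compared metal cation transporters, a family that holds the ZIP proteins, had 3 members higher and 1 lower, with a median of 0.50. The lower member, LOC_Os05g39540, had 0.550 FPKM in node against 14.5 in stem, so this family held genes of both directions. Aquaporins, which conduct water and small solutes, had 8 of 23 members higher and 0 lower. Beside LSI6 and LSI1, LOC_Os01g13120 was high in node, with 125 FPKM (120.1 to 129.9) against 1.55 in stem (1.02 to 2.07). Its neighbour on chromosome 1, LOC_Os01g13130, had 170.5 FPKM in node and 398 in stem, which is the opposite order. Heavy metal associated domain proteins, which include metal chaperones, had 6 of 45 members higher and 1 lower, led by LOC_Os12g05040 and LOC_Os11g05010, at 42.2 and 109 FPKM in node against 0.896 and 11.1 in stem. Amino acid transporters had 9 of 54 higher and 2 lower, and peptide and nitrate transporters 5 of 44 and 1. ABC transporters (3 of 45 higher) and potassium transporters and channels (2 of 24) were near the share of all genes.

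**Figure D2:**
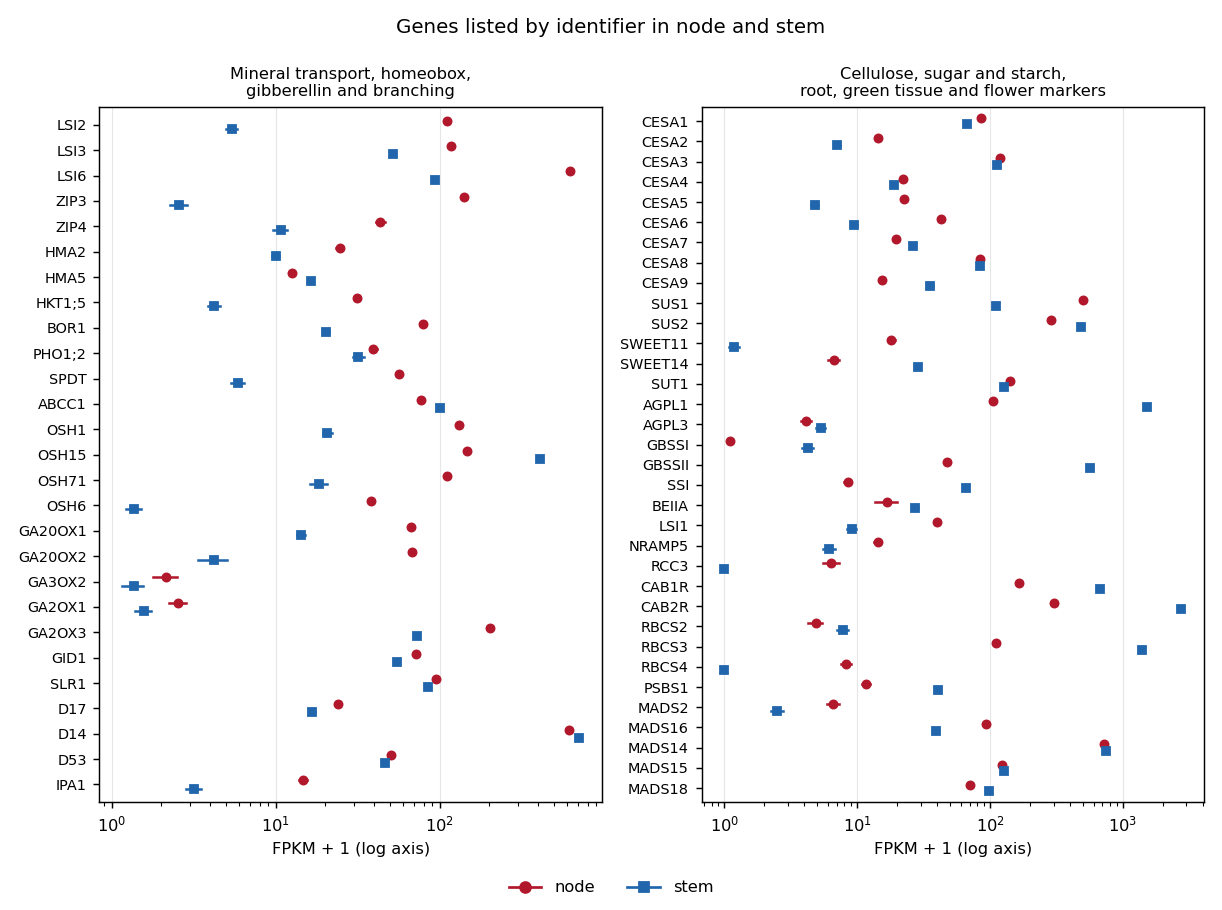
Points give FPKM + 1 (log axis) in node (circles) and in stem (squares) for the listed genes that were compared, with the deposited intervals as bars where these are wider than the point. In the left panel LSI2, ZIP3, SPDT and OSH6 lie far to the right in node, and OSH15 lies to the right in stem; in the right panel AGPL1, GBSSII, CAB2R and RBCS3 lie to the right in stem.

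Metallothioneins, small proteins that bind metals through cysteine, went both ways. LOC_Os01g74300 held 28298 FPKM in node against 4216 in stem and 338 in leaf blade. LOC_Os05g11320, of type 3, had 18174 FPKM in node and 7543 in stem, within 4-fold. In the other direction LOC_Os12g38270 had 26.9 FPKM in node against 397 in stem, and LOC_Os11g47809 had 65.01 FPKM in node against 449 in stem. So 1 metallothionein was higher and 3 were lower among the 6 compared, and the third lower member was listed at 0 in node. Near-identical copies could share fragments in this family.

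Most cell wall families were shifted toward node, and glycosyl hydrolases of family 16 and expansins had the highest medians among them. Glycosyl hydrolases of family 16, among them enzymes that cut and rejoin the xyloglucan between cellulose fibrils, had 12 of 18 compared members higher (28 matched) and 0 lower, with a median log2 ratio of 3.31. Expansins, which loosen walls during growth, had 14 of 26 higher and 0 lower (61 matched), with a median of 2.27. Against the 7.19% of all genes, these shares were 66.7% and 53.8%. The leading gene, LOC_Os11g33270 (chromosome 11, 19675011 to 19678096), reached 276 FPKM in node (bounds 271 to 281) and 0.240 in stem (0.107 to 0.373), a log2 ratio of 7.80. It had 0.565 FPKM in leaf blade, so among the 3 libraries it was abundant in node only. The family was not uniform, since LOC_Os08g13920, whose locus overlapped another row, had 380.2 FPKM in node against 499.6 in stem, and LOC_Os03g63760 had 22.9 FPKM in node against 57.1 in stem.

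Among expansins, LOC_Os05g39990 (chromosome 5, 23495606 to 23497826) stood at 166 FPKM in node (162 to 170.2) against 0.580 in stem (0.340 to 0.820). LOC_Os01g60770 had 106 FPKM in node against 0.319 in stem, and LOC_Os04g15840 had 101 FPKM in node against 0.318 in stem. All 3 were under 1 FPKM in stem and in leaf blade. The expansin most abundant in stem, LOC_Os03g04020, had 173 FPKM in node and 363 in stem (-1.06).

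Enzymes of pectin, the gel of the growing wall, had 10 of 42 members higher, 0 lower and a median of 1.21. The polygalacturonase LOC_Os01g19170 had 70.3 FPKM in node against 1.89 in stem. Glycosyl transferases of families 8 and 43, among which are makers of pectin and xylan, had 9 of 31 higher and 0 lower. Cellulose synthases and their relatives had 7 of 30 higher and 0 lower, and the subunits of the cellulose synthase complex differed among themselves. CESA1, CESA3 and CESA8, of the primary wall, were close to equal, with log2 ratios of 0.35, 0.09 and -0.01. CESA5 and CESA6 belong to the primary wall as well and had higher levels in node, at 21.4 and 41.6 FPKM against 3.76 and 8.49 in stem. The secondary wall subunits CESA4 and CESA7 had log2 ratios of 0.22 and -0.44. For the third, CESA9, the ratio was -1.20 but the implied fragments were more numerous in node, 2447 in node against 1171 in stem, so its direction is uncertain. The relative CSLA1 (LOC_Os02g09930), of a family that makes mannan, had 81.02 FPKM in node (79.2 to 82.9) against 1.75 in stem (1.49 to 2.01).

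Class III peroxidases, secreted enzymes that cross-link phenolics in the wall, counted 25 higher and 3 lower among 66 compared, and their median was 1.41. LOC_Os07g02440 led in node, with 92.7 FPKM against 0.614 in stem, whereas LOC_Os01g22370 had 30.2 FPKM in node against 356 in stem. Lignin is built from alcohols that come from a separate set of enzymes. The lignin pathway list, chosen by description, did not share that direction, with 0 of 19 members higher and 2 lower (median -0.26). Its words include O-methyltransferase, so it can hold enzymes that do not make these alcohols. The lower end was held by the O-methyltransferase LOC_Os05g43930, with 4.69 FPKM in node against 119 in stem, and the other lower member was listed at 0 in node. Laccases, which oxidise the alcohols, had 1 higher and 1 lower of 10, the lower being LOC_Os01g63190 at 6.51 FPKM in node and 73.3 in stem.

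Lipid transfer proteins, secreted carriers of lipids that serve the cuticle and other surfaces, were also shifted toward node. Of 66 compared (145 matched), 33 were higher and 1 lower, with a median of 2.01. LTPL124 (LOC_Os04g52260, chromosome 4, 31061682 to 31062703) stood at 662 FPKM in node (653 to 670.2), 3.37 in stem (2.80 to 3.94) and 103 in leaf blade. LTPL129 had 174 FPKM in node, 2.91 in stem and 0.210 in leaf blade (LOC_Os06g43600). LTPL21 (LOC_Os02g24720), with 4.83 FPKM in node and 21.3 in stem, was toward the other end, inside the threshold at -1.93. The 3-ketoacyl-CoA synthases, which lengthen the fatty acids of waxes, had 4 of 17 higher and 0 lower. GDSL lipases, a family with cutin synthases among its members, had 11 of 55 higher and 4 lower. In that family LOC_Os09g39430 had 84.5 FPKM in node against 3.83 in stem, and LOC_Os01g11570 had 39.8 FPKM in node against 277 in stem.

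**Figure D3:**
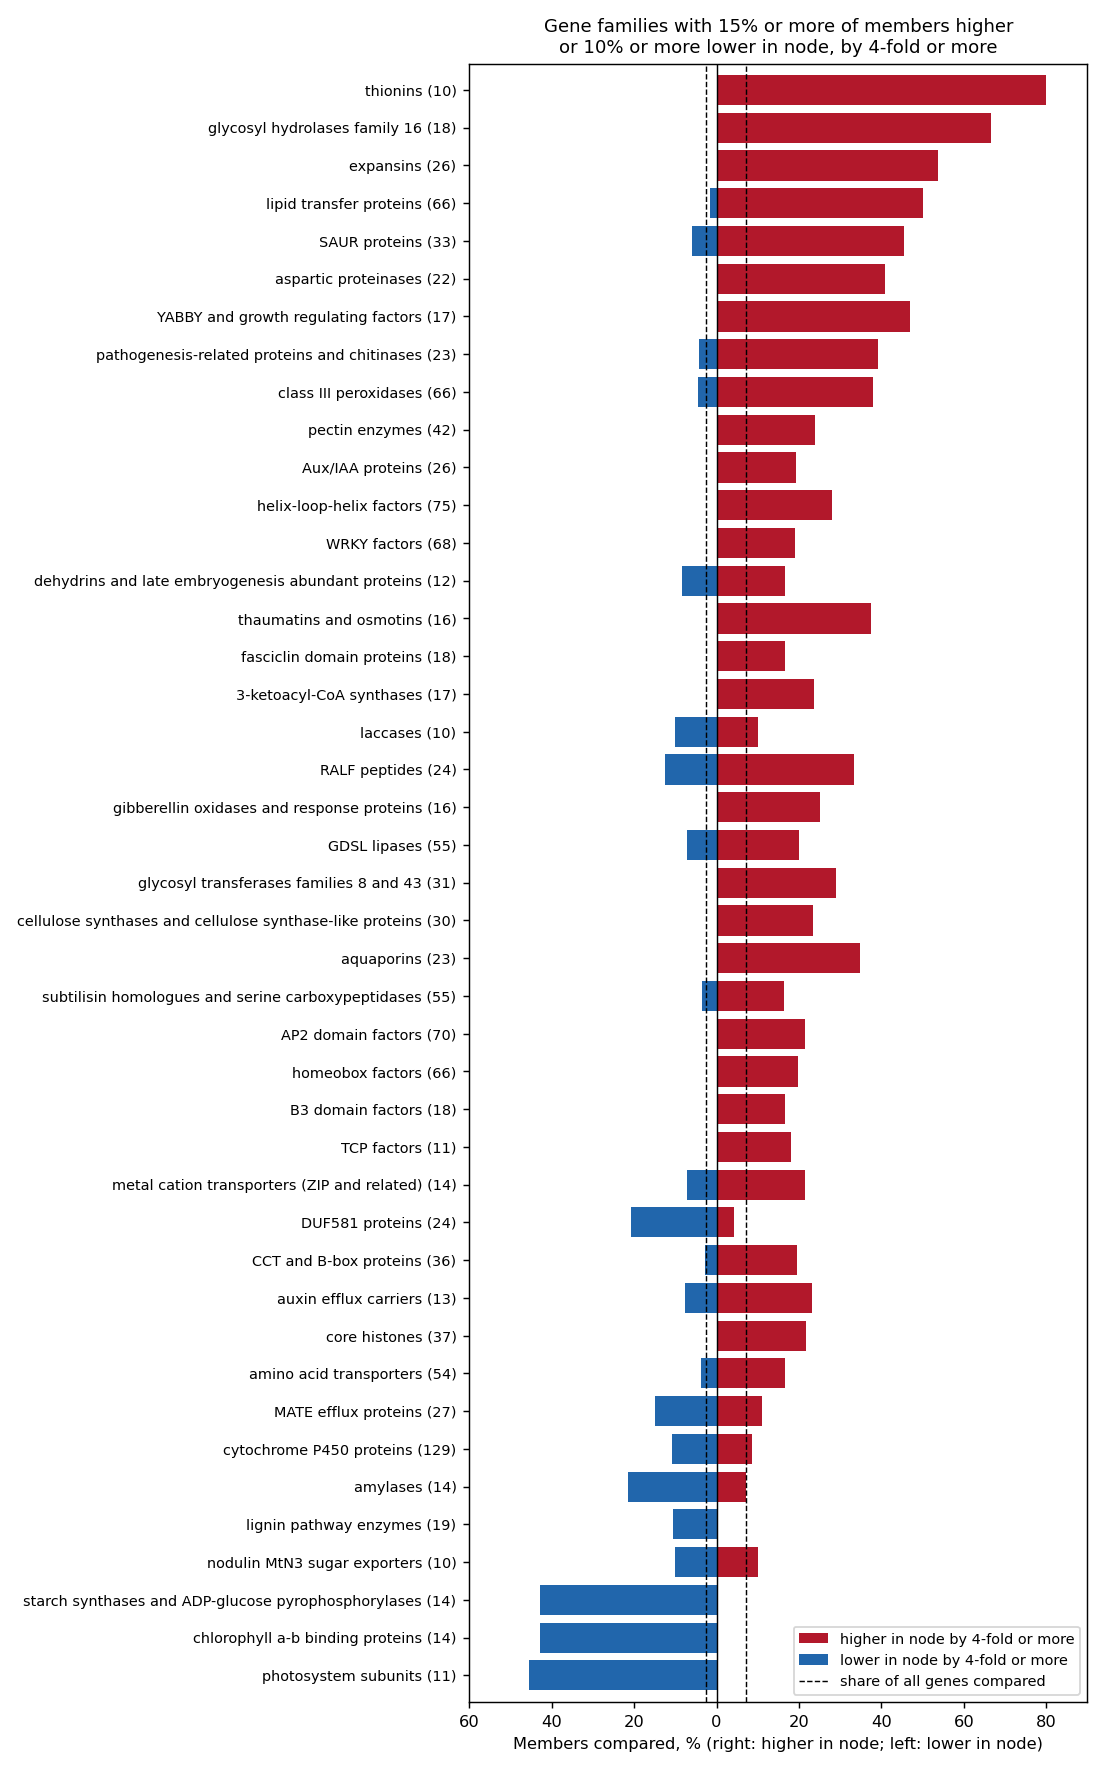
Bars give, for the 43 families with at least 10 members compared and at least 15% of them higher or 10% lower, the percent of members higher in node (right) and lower in node (left) by 4-fold or more, with the number compared in brackets. Dashed lines mark the shares over all genes, 7.19% and 2.49%; families are ordered by median log2 ratio, with thionins, glycosyl hydrolases of family 16, expansins and lipid transfer proteins at the top and photosystem subunits at the bottom. The thionin and DUF581 lists were added after the descriptions were seen.

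Of the auxin response genes, the SAUR and Aux/IAA families were shifted toward node. SAUR proteins, many of which promote cell expansion when auxin induces them, had 15 of 33 members higher and 2 lower (52 matched). Their median was 1.90. Aux/IAA proteins, the repressors that auxin removes, had 5 of 26 higher and 0 lower, led by OsIAA30 (LOC_Os12g40890), at 168 FPKM in node and 12.01 in stem. Auxin response factors, the transcription factors these repressors bind, had 2 of 22 higher and 1 lower, the lower one listed at 0 in node. Those shares, 9.09% and 4.55%, were near the 7.19% and 2.49% of all genes, though the median was 0.89. Of the auxin efflux carriers, which move auxin out of cells, LOC_Os08g41720 had 247 FPKM in node against 5.81 in stem, and LOC_Os09g31478 had 42.3 FPKM in node against 228 in stem. The 2 lower SAUR genes were OsSAUR39 (LOC_Os09g37330) at 1.55 FPKM in node and 26.3 in stem, and OsSAUR29 (LOC_Os06g50040) at 99.9 FPKM in node and 469 in stem. The OsSAUR29 locus overlapped another row, and its fragment shares differed by little.

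Gibberellin drives stem elongation. GA20OX2 (LOC_Os01g66100, chromosome 1, 38382382 to 38385504), the semi-dwarf gene of rice and a late enzyme of gibberellin synthesis, measured 66.8 FPKM in node (64.3 to 69.4) and 3.19 in stem (2.36 to 4.01). GA20OX1 (LOC_Os03g63970), of the same step, had 65.9 FPKM in node and 13.2 in stem. Each was thus over the 4-fold threshold toward node. Of 2 other genes described as gibberellin 20 oxidase, LOC_Os04g39980 had 179 FPKM in node against 21.6 in stem, with fragment shares that differed by under 4-fold, and LOC_Os08g44590 had 36.7 FPKM in node against 59.4 in stem, so these oxidases held both orders. The list of gibberellin oxidases and response proteins had 4 of 16 members higher and 0 lower, with 15 above 0, 1 below, and a median of 0.85, and LOC_Os08g44590 was the member below 0. The inactivating enzyme gene GA2OX3 (LOC_Os01g55240) was within 4-fold but toward node, at 201 FPKM in node and 71.7 in stem (1.48). The receptor GID1 (0.38) and the repressor SLR1 (0.15) were near equal. GASA peptides, many of which gibberellin induces, had 4 of 6 compared members higher and 0 lower, in a list added after the descriptions were seen. GASR3 (LOC_Os03g55290, chromosome 3, 31464840 to 31465625) measured 382 FPKM in node (373 to 391) and 2.57 in stem (1.90 to 3.25), and GASR10 had 13.9 FPKM in node and was listed at 0 in stem (LOC_Os09g24840). Beside these, the jasmonate repressors with a ZIM domain had 5 of 6 members higher, among them LOC_Os10g25290 at 271 FPKM in node and 26.97 in stem. Cytokinin genes were mixed, with 5 of 40 higher and 3 lower. The response regulator OsRR6 (LOC_Os04g57720) had 36.7 FPKM in node and was listed at 0 in stem. The 3 lower members were glucosyltransferases described as acting on cytokinin, led by LOC_Os02g51930 at 2.88 FPKM in node and 59.2 in stem. The strigolactone receptor gene D14 (-0.20) and its target D53 (0.12) were near equal.

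Transcription factors had more calls toward node than genes at large. Over 15 families there were 684 genes compared, of which 115 (16.8%) were higher and 11 (1.61%) lower. KNOTTED1-like homeobox genes, which keep meristem cells undifferentiated, did not share 1 direction. OSH6 (LOC_Os01g19694, chromosome 1, 11166948 to 11174452) stood at 37.1 FPKM in node (35.6 to 38.6) and 0.365 in stem (0.225 to 0.506). OSH1 (LOC_Os03g51690) had 131 FPKM in node and 19.6 in stem, and OSH71 (LOC_Os05g03884) had 110.1 FPKM in node against 17.3 in stem. OSH15 (LOC_Os07g03770, chromosome 7, 1566064 to 1572187), whose loss shortens internodes in rice, had the opposite order, at 145 FPKM in node (142 to 148) and 411 in stem (406 to 415), a log2 ratio of -1.49 that was within 4-fold. These 4 were each under 1 FPKM in leaf blade. Of the 6 listed, OSH43 and OSH10 could not be compared. The OSH43 row was merged with a neighbour in node, at 12.2 FPKM, and stood alone in stem, at 2.37 FPKM. OSH10 was in a row merged in both tables, at 38.5 FPKM in node and 21.8 in stem. In the homeobox family as a whole, 13 of 66 were higher and 0 lower, with LOC_Os07g48560 at the top, at 66.2 FPKM in node and 0.222 in stem.

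YABBY and growth regulating factors, which act in lateral organs and in dividing tissue, had 8 of 17 compared members higher, and the 17 compared were each above 0 on the log2 scale. The YABBY gene LOC_Os03g44710 had 81.3 FPKM in node, 1.14 in stem and 9.93 in leaf blade. Helix-loop-helix factors had 21 of 75 higher and 0 lower (median 1.16). Their leading gene, LOC_Os03g07540, had 195 FPKM in node but rested on 362 implied fragments there, and LOC_Os01g50940, with 160.2 FPKM in node against 6.99 in stem, rested on 14654. WRKY factors, many of which act in defence, had 13 of 68 higher and 0 lower, with WRKY2 (LOC_Os10g42850) at 63.8 FPKM in node and 2.60 in stem. AP2 domain factors had 15 of 70 higher and 0 lower, and LOC_Os06g08340 had 46.3 FPKM in node and was listed at 0 in stem and leaf blade. Families with calls of both directions were NAC factors, with 7 of 62 higher and 5 lower, and bZIP factors, with 5 of 43 higher and 3 lower. NAC gene LOC_Os03g60080 had 446 FPKM in node against 59.1 in stem, and LOC_Os09g33490 had 27.7 FPKM in node against 165 in stem. The branching regulator IPA1 (LOC_Os08g39890), also called OsSPL14, had 13.7 FPKM in node and 2.16 in stem, and its locus overlapped another row. Among MADS-box genes OsMADS32 (LOC_Os01g52680) had 22.98 FPKM in node and 0.341 in stem, while MADS14, MADS15 and MADS18 had log2 ratios of -0.06, -0.07 and -0.48.

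Several families of secreted defence and signal peptides had a larger share of members higher in node than the 7.19% of all genes. Thionins, small antimicrobial proteins, had 8 of 10 compared members higher and 0 lower, and 39 were matched in all. Their list was added after the descriptions were seen, and the 8 higher members reached 1 FPKM in node only. Their levels in node were moderate, with THION6 (LOC_Os06g32020) the highest at 35.7 FPKM (33.4 to 38.1) against 0.270 in stem (0.0817 to 0.458). The copies are alike, so fragments could be shared among them. DEF7 (LOC_Os02g41904), a defensin, had 216 FPKM in node, 3.62 in stem and was listed at 0 in leaf blade. Its relative DEF8 (LOC_Os03g03810) was abundant in node and stem alike, with 1556 FPKM in node against 665 in stem. Pathogenesis-related proteins and chitinases had 9 of 23 higher and 1 lower, with CHIT5 (LOC_Os05g33140) at 27.8 FPKM in node and 0.0179 in stem and CHIT8 (LOC_Os06g51060) at 19.3 FPKM in node and 90.7 in stem. Thaumatins and osmotins had 6 of 16 higher and 0 lower. RALF peptides are signals that make the medium around cells alkaline. They had 8 of 24 higher (33.3%) and 3 lower (12.5%), both above the 7.19% and 2.49% of all genes. Among these peptides, RALFL20 (LOC_Os04g31484) had 77.1 FPKM in node against 2.02 in stem, and RALFL26 (LOC_Os10g41980) had 36.9 FPKM in node against 173 in stem. Resistance proteins of the NBS-LRR type, which act inside the cell, had 0 of 72 higher and 1 lower. Aspartic proteinases of the nepenthesin type had 9 of 22 higher and 0 lower. The highest of them, LOC_Os09g30414, had 269 FPKM in node and was listed at 0 in stem and leaf blade, and its locus overlapped another row.

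Some genes higher in node were neighbours. Among compared genes in chromosome order there were 19 runs of 3 or more genes called higher, with 75 genes, and 1 run of genes called lower, with 3. As 7.19% of genes were called higher and 2.49% lower, more runs of higher genes follow from the calls alone. Clustering was not tested. The longest run, of 8 thionin genes, lay on chromosome 6 from 18466974 to 18774641, with node levels of 3.38 to 35.7 FPKM and stem levels of 0.0168 to 0.27. A run of 6 SAUR genes and a gene described as auxin responsive protein lay on chromosome 9 from 21596204 to 21610023. Those genes had 18.7 to 66.2 FPKM in node, 0 to 1.32 in stem and at most 0.0934 in leaf blade. OsSAUR55 (LOC_Os09g37500) was the highest of them at 66.2 FPKM in node (62.9 to 69.6) and 0.789 in stem (0.445 to 1.13). SAUR genes are short and similar, so fragments could be shared among neighbours here too. Lipid transfer protein genes formed a run of 4 on chromosome 11, from 680034 to 716542, at 18.1 to 152.8 FPKM in node and 1.17 to 5.78 in stem. Another on chromosome 3, from 33022996 to 33035629, held 3 lipid transfer protein genes and an acetyltransferase gene, and had 6.58 to 60.3 FPKM in node and 0 to 2.01 in stem. On chromosome 10, from 21830151 to 21867667, 3 expansin genes and a helix-loop-helix gene had 11.4 to 127.8 FPKM in node and 0.677 to 11.7 in stem. Over the 12 chromosomes the share of genes higher ranged between 5.44% and 8.91%, and the share lower between 1.90% and 3.36%.

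**Figure D4:**
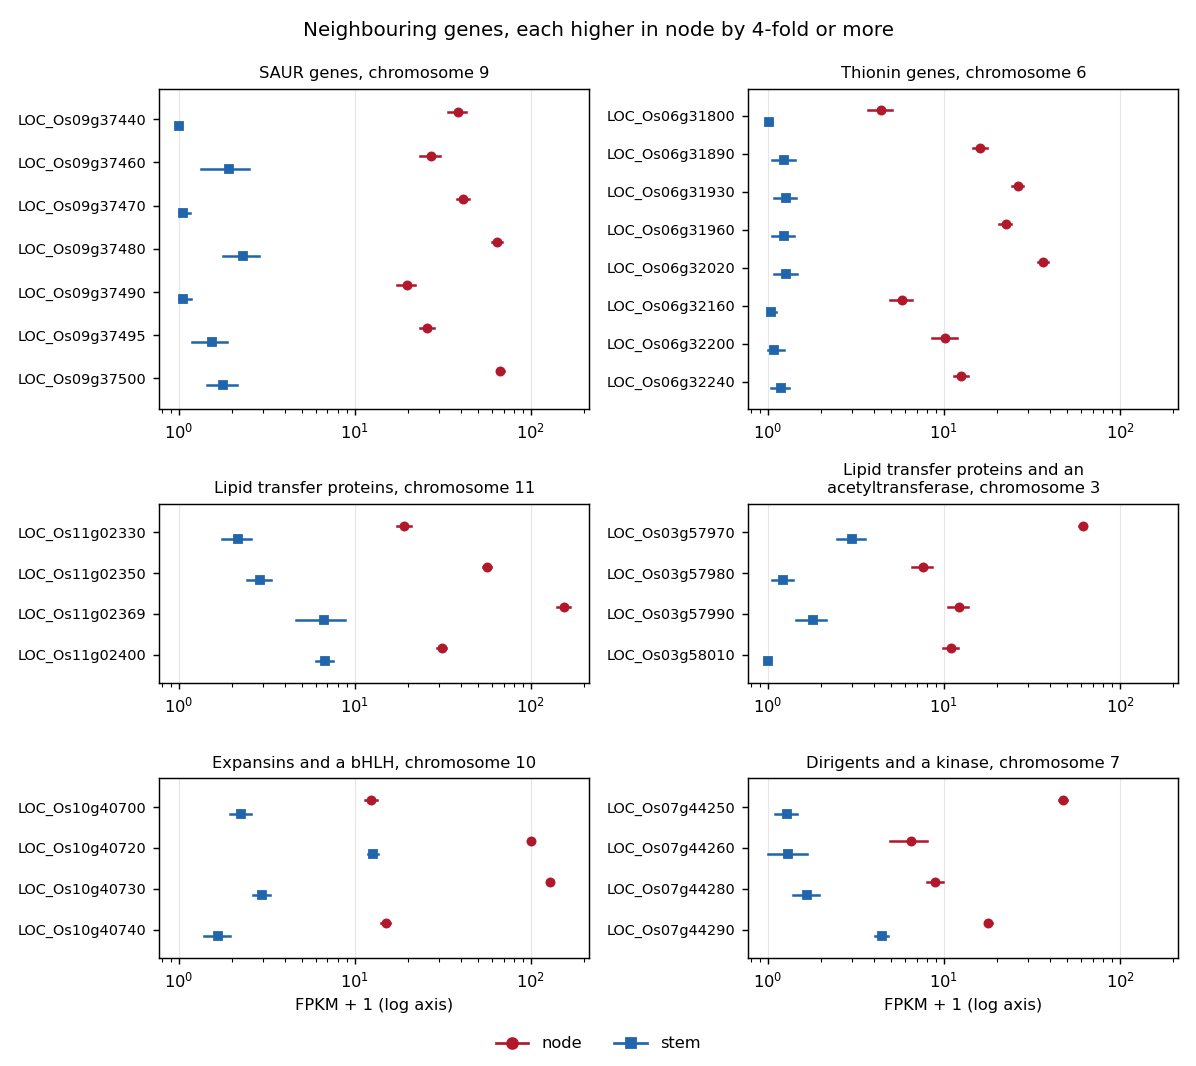
Points give FPKM + 1 (log axis) in node (circles) and stem (squares) with the deposited intervals as bars, for genes of 6 runs in chromosome order. Every gene lies to the right in node, and the 8 genes of the thionin run and the 7 of the SAUR run stand between 3.38 and 66.2 FPKM in node against at most 1.32 in stem.

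Among photosynthesis genes, antenna and photosystem genes had calls toward stem and none toward node. Chlorophyll a-b binding proteins, the antenna of the photosystems, had 0 of 14 higher and 6 lower, with a median log2 ratio of -1.82. Photosystem subunits had 0 of 11 higher and 5 lower, and the 11 compared were each below 0 on the log2 scale (median -1.86). CAB2R (LOC_Os01g41710, chromosome 1, 23607348 to 23608583) stood at 304 FPKM in node (298 to 309), 2741 in stem (2726 to 2755) and 1999 in leaf blade. The photosystem I subunit gene LOC_Os12g23200 had 77.3 FPKM in node, 762 in stem and 1491 in leaf blade. For both, node was the lowest of the 3 libraries, and for CAB2R stem was the highest. RBCS3 (LOC_Os12g19381), a Rubisco small subunit, had 110.4 FPKM in node and 1394 in stem, but its locus overlapped another row and it has near-identical copies, of which RBCS4 was at 7.26 FPKM in node and listed at 0 in stem. Rubisco small subunits thus had 1 member higher, 1 lower and 1 within 4-fold of 3 compared. Several of these genes are among the green tissue markers summed above, and the part of green cells in the difference was not tested.

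Starch synthesis genes had calls toward stem and none toward node. Of 14 starch synthases and ADP-glucose pyrophosphorylases compared, 0 were higher, 6 lower and 8 within 4-fold, with a median of -1.78. Of the 14, 3 were above 0 on the log2 scale, and the farthest of them toward node was listed at 0 in stem. AGPL1 (chromosome 5, 28871794 to 28877277, LOC_Os05g50380), which encodes a subunit of the enzyme that makes ADP-glucose for starch, measured 104 FPKM in node (101 to 107) and 1502 in stem (1492 to 1512). Another gene described as a subunit of that enzyme, LOC_Os09g12660, had 134 FPKM in node and 794 in stem, and was named after its values were seen. GBSSII (LOC_Os07g22930, chromosome 7, 12916277 to 12924325), a granule-bound starch synthase of organs other than the grain, had 46.5 FPKM in node and 559.7 in stem. Leaf blade had 10.7, 6.11 and 61.9 FPKM of these 3 genes, so each was highest in stem. The soluble synthases SSI and LOC_Os04g53310 had log2 ratios of -2.96 and -3.10. Of the same enzyme, 2 subunit genes were within 4-fold, AGPL3 at a log2 ratio of -0.36 and LOC_Os01g44220 at 0.52, which had 12.8 FPKM in node against 8.65 in stem. Amylases, which break starch down, had 1 member higher and 3 lower of 14. The alpha-amylase gene LOC_Os06g49970 had 2.92 FPKM in node against 22.3 in stem, and LOC_Os08g36910 had 15.2 FPKM in node against 0.613 in stem.

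**Figure D5:**
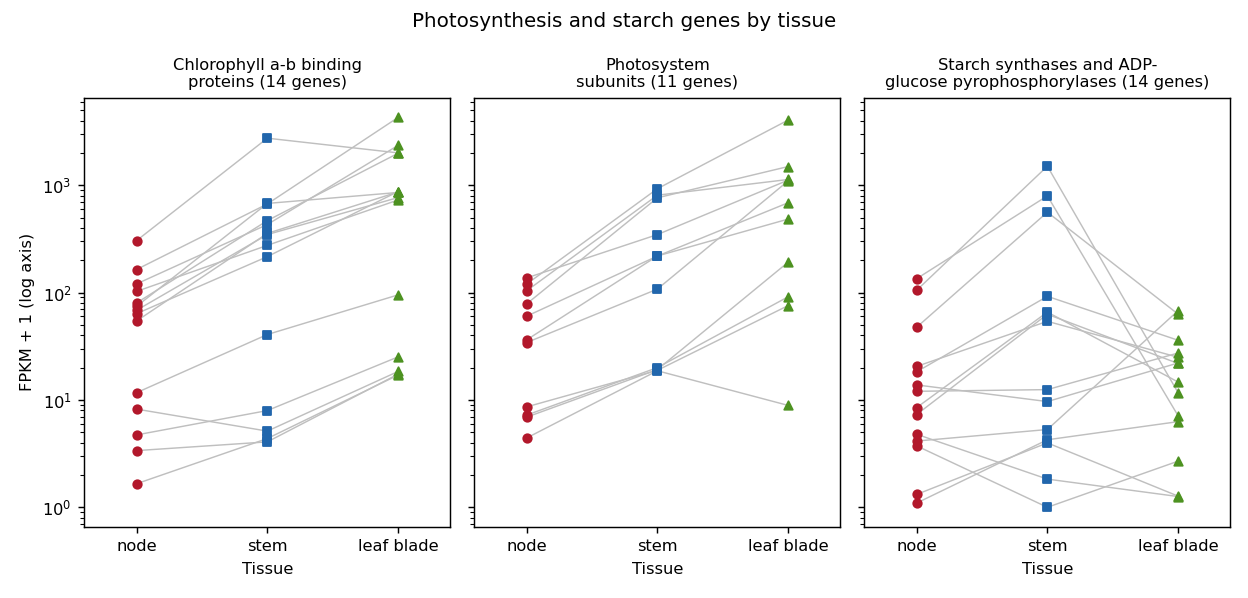
Each point is a gene at its FPKM + 1 (log axis) in node, stem and leaf blade, and grey lines join the values of 1 gene, for every member compared of 3 families. In the first 2 panels the levels are lowest in node and highest in leaf blade for most genes; in the starch panel AGPL1 and GBSSII stand highest in stem, at 1502 and 559.7 FPKM.

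Sugar handling genes differed in order from member to member. SUS1 (LOC_Os03g28330), a sucrose synthase that splits sucrose in sink tissue, had 499 FPKM in node (495 to 503) and 109.6 in stem (108 to 112). For SUS2 (LOC_Os06g09450) the order was the other way, 284 FPKM in node and 482 in stem, but its implied fragments were more numerous in node, so its direction is uncertain. SWEET sugar exporters had 1 member higher and 1 lower of 10, with 3 above 0, 7 below and a median of -0.66. The higher one was SWEET11 (LOC_Os08g42350, chromosome 8, 26725898 to 26728795) at 17.04 FPKM in node and 0.182 in stem, and the lower one SWEET14 (LOC_Os11g31190) at 5.66 in node and 27.5 in stem. SWEET11 was also near 0 in leaf blade, at 0.0148 FPKM. The sucrose importer SUT1 (LOC_Os03g07480), which loads the phloem, was near equal at 139 FPKM in node and 126 in stem. SUT2, another sucrose transporter, was in a row merged with the same neighbour in both tables and left out of the comparison, and that row had 33.4 FPKM in node and 112.5 in stem.

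Outside photosynthesis and starch, the genes farthest below the stem were scattered over families. The cysteine protease gene LOC_Os03g54130 (chromosome 3, 31023379 to 31025227) stood at 0.183 FPKM in node (0.0728 to 0.294), 112 in stem (109 to 115) and 24.2 in leaf blade. A plastocyanin-like gene, LOC_Os11g24140, had 8.40 FPKM in node, 319 in stem and 0.180 in leaf blade, so it was high in stem only. Cytochrome P450 proteins, enzymes of hormone and secondary metabolism, had 11 of 129 members higher and 14 lower. The share higher, 8.53%, was near the 7.19% of all genes, and the share lower, 10.9%, was above their 2.49%. The P450 genes LOC_Os03g45619 and LOC_Os10g05490 had 11.6 and 1.62 FPKM in node against 224 and 53.6 in stem. The chalcone synthase gene LOC_Os11g32650, at the entry to flavonoids, had 18.7 FPKM in node against 176 in stem. DUF581 proteins, zinc finger proteins that bind the kinase SnRK1 in Arabidopsis, had 1 of 24 higher (4.17%) and 5 lower (20.8%), though their median was 0.42. Their list was added after the descriptions were seen. LOC_Os09g26370 had 15.3 FPKM in node against 356 in stem, and 2 others, LOC_Os02g46180 and LOC_Os02g46190, made up the run of lower genes on chromosome 2 with an undescribed gene. The Bowman-Birk inhibitor BBTI7 (LOC_Os01g03390), which blocks trypsin, had 66.7 FPKM in node and 582 in stem and was listed at 0 in leaf blade.

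Cell division genes differed by list. Kinesins had a median of 1.08 with 3 of 39 members higher, a share of 7.69% that was near the 7.19% of all genes. Of these 3, LOC_Os09g02650 had fragment shares that were near equal and slightly the other way. Cyclins had a median of 0.83 with 5 of 35 higher (14.3%), and DNA replication proteins a median of 0.47 with 0 of 36 beyond 4-fold. Core histones had 8 of 37 higher (21.6%), with LOC_Os03g17100 at 107 FPKM in node and 3.69 in stem. Their median was 0.26, near that of all genes. Tubulins, of which microtubules are built, had 0 of 17 beyond 4-fold and a median of -0.22, with 6 members above 0 and 11 below.

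Families of general upkeep differed little by their medians. Ribosomal proteins had 0 of 265 higher and 7 lower, with a median of 0.08. Their share lower, 2.64%, was near the 2.49% of all genes. Pentatricopeptide repeat proteins, which edit and process organelle transcripts, had 3 of 223 higher and 1 lower. Proteasome subunits (49 compared) and protein phosphatases 2C (56) had 0 members beyond 4-fold, against 9.68% of all genes. RNA recognition motif proteins had 1 of 134 higher and 1 lower.

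The genes higher in node were mostly low in leaf blade as well. Their median level was 16.2 FPKM in node, 0.855 in stem and 0.504 in leaf blade, and 57.4% of those with a leaf blade value were under 1 FPKM there. The genes lower in node had medians of 2.76 FPKM in node, 26.3 in stem and 11.02 in leaf blade, and 21.4% were under 1 FPKM in leaf blade, against 18.6% of all genes compared. The share of the genes lower in node was thus near that of all genes, and that of the genes higher in node was above it. The node and stem medians follow from the call itself. Leaf blade values took no part in it, but a call of higher favours genes low in stem and a call of lower genes high in stem. The 18.6% of all genes is thus no background matched for stem level. Calls of higher included 184 genes listed at 0 in stem, and calls of lower 104 listed at 0 in node, for which no ratio is given because a 0 can be a failed estimate.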

How the data were processed

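Total RNA of 3 rice tissues was extracted with Trizol and sequenced as paired-end libraries, 1 per tissue, per the labels, which also give the tissues used to group them. Per the file headers, the authors deposited 1 table for each library, in which a row gives a locus, a description and an FPKM value with its bounds. Per the submitters' processing notes the aligner TopHat was used, in a version not stated. Program of quantification, genome build, annotation release and strand are not given in the sources used here. Because FPKM scales fragments to length and to library size, it depends on the length model and on what the most abundant genes take up.

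Rows with no identifier held 6.44% of summed FPKM in node and 10.7% in stem, and merged rows with several identifiers 8.21% in node and 8.39% in stem. Both kinds were left out. Ratios are log2 of (FPKM + 1), which understates differences at low values, and genes under 1 FPKM in both tissues were left out. With 1 library per tissue no test was possible. The implied number of fragments is the square of 2 × FPKM over the distance from FPKM to its upper bound. Among rows with few fragments it came out close to a whole number for 53.9% in node and 55.0% in stem, so it is approximate. Coordinates are the deposited loci with 1 added to the start, a convention inferred from the data. Strand being unknown, overlapping loci, and copies that are nearly identical, may have received fragments of one another. 

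Families were found by words in the description. Of 92 such lists, 74 were used as planned, 13 had their words changed and 5 were added after the descriptions were seen. The 5 added were GASA peptides, thionins, defensins, DUF581 proteins, and inhibitors of invertase and pectin methylesterase. Symbols were attached by identifier alone. LSI2, LSI3 and D53 are described only as expressed protein. All members and lists were chosen with earlier results of these data known. Genes named are those with the 15 highest and 15 lowest ratios of described genes (at least 10 FPKM in the tissue where the gene is higher), the 10 most abundant per tissue, up to 3 highest and 3 lowest per list, members of the identifier lists and members of runs. Others are said to have been named after their values were seen. The alternatives were another pseudocount, filter, scaling and centring, fragment shares, nearest interval ends and leaving out overlapping loci. Python 3.11.15, pandas 2.3.3, numpy 2.4.6, scipy 1.17.1 and matplotlib 3.10.9 were used.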

Additional observations from a re-analysis of the deposited data

Results flagged for a closer look

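The most abundant row with no identifier in stem had 57111 FPKM (chromosome 10, 2755965 to 2756070, 106 bases), and drew attention because it lies outside the genes compared and held 5.95% of the summed FPKM of that library. Its deposited interval ran from 30189 to 84034, which implies 18 fragments. No row of the node table overlapped it. The stem library held about 43160000 implied fragments, so the share of fragments in this row was far below its share of FPKM. With so few fragments on so short a locus the level is imprecise and is no measure of an abundant transcript, and its source was not tested.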

How the results depend on the processing

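The 1390 genes higher and 481 lower became 2657 and 869 with a pseudocount of 0.1, and 492 and 192 with a pseudocount of 5. Both counts stayed within 1.5 times when the filter was 5 FPKM (1226 and 445), with values rescaled without the most abundant rows (1349 and 496), centred on the median (1156 and 612), from shares of implied fragments (1540 and 518), without overlapping loci (1218 and 397) and at the nearest interval ends (1064 and 353). Centring moved the share of calls that were higher to 65.4%, against 74.3%. The median of all genes was 0.027 with no filter and 0 at the nearest interval ends. The median of BURP domain proteins turned to 0.35 with the filter at 5 FPKM, that of Rubisco small subunits to 1.19 without overlapping loci and that of sucrose synthases to -0.073 with that filter; few members were left in each and the cause was not tested. The log2 ratio of LOC_Os09g02650, a kinesin gene, was -0.069 from shares of implied fragments. Of 96 genes named in the text and called, with DEF9 not counted, 14 were within 4-fold with a pseudocount of 5: LSI1, CESA5, CESA6, GA20OX1, ZIP4, IPA1, GASR10, SWEET14, RBCS4, CHIT8, LOC_Os05g39540, LOC_Os06g49970, LOC_Os08g36910 and LOC_Os09g02650. From fragment shares 7 were (ZIP4, OsIAA30, OsSAUR29, LOC_Os01g70170, LOC_Os04g39980, LOC_Os05g39540 and LOC_Os09g02650). On centring 5 were (LSI1, SUS1, CESA6, ZIP4 and LOC_Os09g02650), at the nearest interval ends 5 (LSI1, ZIP4, IPA1, SWEET14 and LOC_Os09g02650), and after rescaling 2 (ZIP4 and LOC_Os09g02650). DEF9, at 4.78 FPKM in node and listed at 0 in stem, was also within 4-fold with a pseudocount of 5. No paired analysis was possible because each tissue has 1 library. The intervals cover counting error, and the spread between plants was not measured.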

Other observations

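Some abundant genes outside the families were far apart in the tissues. Apart from a run on chromosome 4, the genes named here were chosen after their values were seen. LOC_Os05g02070, described only as expressed protein, had 29822 FPKM in node (29736 to 29908), 3126 in stem (3099 to 3153) and 193 in leaf blade. LOC_Os08g39330, also undescribed, had 1279 FPKM in node, 20.5 in stem and 0.874 in leaf blade. On chromosome 4, a run of 5 neighbouring genes that held 3 expressed proteins, a hypothetical protein and the defensin-like gene DEF9 was higher in node, where the DEF9 locus overlapped that of its neighbour. Its last gene, LOC_Os04g11400, had 704 FPKM in node, 0.477 in stem and 668 in leaf blade, so it was low in stem only.

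A few abundant enzyme genes were higher in stem. The transaldolase gene LOC_Os01g70170, of the pentose phosphate pathway, had 434 FPKM in node and 2026 in stem, against 324 in leaf blade. An aldolase gene, LOC_Os11g07020, had 96.7 FPKM in node, 961 in stem and 406 in leaf blade. The alpha-glucan phosphorylase gene LOC_Os03g55090, whose enzyme acts on starch, had 107 FPKM in node, 739.8 in stem and 94.5 in leaf blade. LOC_Os12g08760, described as a carboxyvinyl-carboxyphosphonate phosphorylmutase, had 417 FPKM in node, 1859 in stem and 7.09 in leaf blade. Each of these 4 was highest in stem.

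Genes without a specific description made up 324 of the higher genes and 143 of the lower ones, which is 23.3% and 29.7%, against 25.4% of all genes compared. Transposable element genes were near the background, with 6.10% of 590 higher and 2.03% lower.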
